A study of Mus musculus with 115 samples.

Results

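Zfp738, a zinc finger gene of mouse chromosome 13, was used to sort prostate libraries of a (TRAMP x WSB) F2 intercross. The 36 libraries compared were chosen by their measured levels of Chga and Zfp738. Chga, the neuroendocrine gene for chromogranin A, was under 1 TPM in 73 libraries and at or above it in the other 42 of the series. Among the 73, the 18 with the lowest Zfp738 level formed the Zfp738-low side and the 18 with the highest level the Zfp738-high side, and the remaining 37 were kept as the middle libraries. Zfp738 stood in for the genotype near the gene, because the SNP genotypes of the mice were not used here. Every level is given in TPM, the length-corrected share of a gene among all transcripts of its library.

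All libraries came from male F2 mice that carried the TRAMP transgene, and their labels place them in a single group. The mice descended from C57BL/6J TRAMP females and WSB/EiJ males, WSB/EiJ being a wild-derived inbred strain, and were kept to a fixed study endpoint or a humane endpoint. The transgene expresses the SV40 T antigen under the androgen-responsive probasin promoter in prostate epithelium, which limits the model to tumors begun by a viral oncoprotein. RNA came from bulk tissue labelled as prostate tumor, and from the ventral prostate where the organ was small.

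In an F2 intercross each mouse carries at any position the alleles of one strain, of the other, or of both, and genes close together on a chromosome are mostly inherited together. A gene whose level follows the allele beside it is said to have a cis-eQTL, and its neighbours on the same haplotype can differ with it. Zfp738 lies in a cluster of genes for KRAB zinc finger proteins, which bind DNA through arrays of zinc fingers and recruit the corepressor Trim28 to silence transposable elements and some genes. The cluster holds Rsl1, known as a regulator of sex-limited liver genes.

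Clusters of this kind grow by duplication, and a short stretch recurs in many promoters of this one. Likeness along the whole promoter, and whether the stretch stems from duplication, were not tested. Printed are the promoters of Zfp738, of 3 neighbours that differed between the sides and of Zfp748, which shares a start region with the called transcript 9430065F17Rik. They are given as in RefSeq on GRCm38.p6, from 250 bases before to 50 bases after the start. All 5 are read on the minus strand of chromosome 13: Zfp738 from chr13:67683463-67683762, Zfp429 from chr13:67399718-67400017, Zfp874a from chr13:67451575-67451874, Zfp708 from chr13:67081496-67081795 and Zfp748 from chr13:67553103-67553402. Capitals mark the 18-base stretch in which these 5 promoters had most bases in common.
Zfp738: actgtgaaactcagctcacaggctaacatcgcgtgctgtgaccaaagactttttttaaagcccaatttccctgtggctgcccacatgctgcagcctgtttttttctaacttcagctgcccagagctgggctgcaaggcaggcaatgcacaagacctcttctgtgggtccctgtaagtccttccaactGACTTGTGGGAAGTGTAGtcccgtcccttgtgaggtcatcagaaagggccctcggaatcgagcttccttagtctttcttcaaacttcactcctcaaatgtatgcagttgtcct
Zfp429: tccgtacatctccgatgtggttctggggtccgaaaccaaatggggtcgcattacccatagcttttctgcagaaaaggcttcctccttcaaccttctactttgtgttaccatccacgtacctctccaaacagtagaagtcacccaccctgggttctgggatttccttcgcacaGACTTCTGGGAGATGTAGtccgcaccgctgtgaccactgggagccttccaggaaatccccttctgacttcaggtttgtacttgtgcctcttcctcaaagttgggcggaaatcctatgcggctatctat
Zfp874a: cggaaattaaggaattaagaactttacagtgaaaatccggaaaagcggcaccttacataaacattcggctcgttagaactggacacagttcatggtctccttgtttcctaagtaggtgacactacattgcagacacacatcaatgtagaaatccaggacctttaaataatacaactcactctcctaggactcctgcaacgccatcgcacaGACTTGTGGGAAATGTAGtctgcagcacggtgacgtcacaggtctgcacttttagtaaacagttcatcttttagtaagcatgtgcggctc
Zfp708: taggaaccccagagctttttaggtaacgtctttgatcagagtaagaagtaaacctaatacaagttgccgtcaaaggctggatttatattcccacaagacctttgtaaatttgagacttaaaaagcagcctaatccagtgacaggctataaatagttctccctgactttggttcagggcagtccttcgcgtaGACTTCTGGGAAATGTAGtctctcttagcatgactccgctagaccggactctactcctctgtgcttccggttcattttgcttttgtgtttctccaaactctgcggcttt
Zfp748: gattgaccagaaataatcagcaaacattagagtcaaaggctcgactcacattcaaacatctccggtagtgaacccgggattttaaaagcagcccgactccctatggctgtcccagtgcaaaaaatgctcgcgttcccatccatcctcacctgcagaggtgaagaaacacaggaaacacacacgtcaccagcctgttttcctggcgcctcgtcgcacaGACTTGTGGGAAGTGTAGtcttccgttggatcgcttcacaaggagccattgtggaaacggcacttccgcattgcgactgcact
The stretch, GACTTNTGGGANNTGTAG with N for any base, has 15 fixed letters and was read from these promoters, so its presence in them is no finding. It began 63 bases before the start in Zfp738, 78 in Zfp429, 40 in Zfp874a, 59 in Zfp708 and 33 in Zfp748. Zfp708 has 2 promoters, and the better match was printed. The other, chr13:67097927-67098226, lacks the stretch. On either strand it stood in 26 of 32851 promoters of the table (0.0791%), and 22 of these were on chromosome 13. Here and below, zinc finger genes were taken by symbol, as those starting with Zfp, Zkscan, Zscan, Znf or Rsl1. Within 1 Mb of Zfp738 the stretch stood in 16 of the 24 zinc finger promoters (66.7%) or 11 of 19 (57.9%) without the 5 it was read from, and in 5 of the 19 other promoters (26.3%), against 1 of 393 zinc finger promoters (0.254%) on other chromosomes. The 5 others include 2 of 9430065F17Rik, which overlap the promoter of Zfp748. Of the 16 genes of chromosome 13 that passed the test between the sides, 10 had a promoter in the table.

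The sides differed in Zfp738 by construction. Zfp738, on chromosome 13 from 67658685 to 67687071 on the minus strand of GRCm38, ranged from 0.16 to 1.30 TPM in the low side (median 0.345), from 1.81 to 3.85 in the middle libraries (median 2.55) and from 3.90 to 9.86 in the high side (median 4.68). Of the 18 low libraries, 13 were at or under 0.47 TPM and 5 stood between 0.73 and 1.30. The low side ended at a gap, since its highest library was at 1.30 and the next library at 1.81, which was the largest step between neighbours up to 4 TPM. No gap marked the high side, whose lowest library was at 3.90 TPM beside a middle library at 3.85. In TPM the step that ends the low side was 0.51, beside 0.34 for the next largest, and the low side was not uniform. Its 5 libraries from 0.73 to 1.30 TPM had medians of 0.37 TPM in Zfp429 and 1.79 TPM in AK157302, another chromosome 13 gene. The 13 at or under 0.47 TPM had medians of 0.10 and 4.09 TPM. The boundary of the high side cuts through a continuous range.

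**Figure D1:**
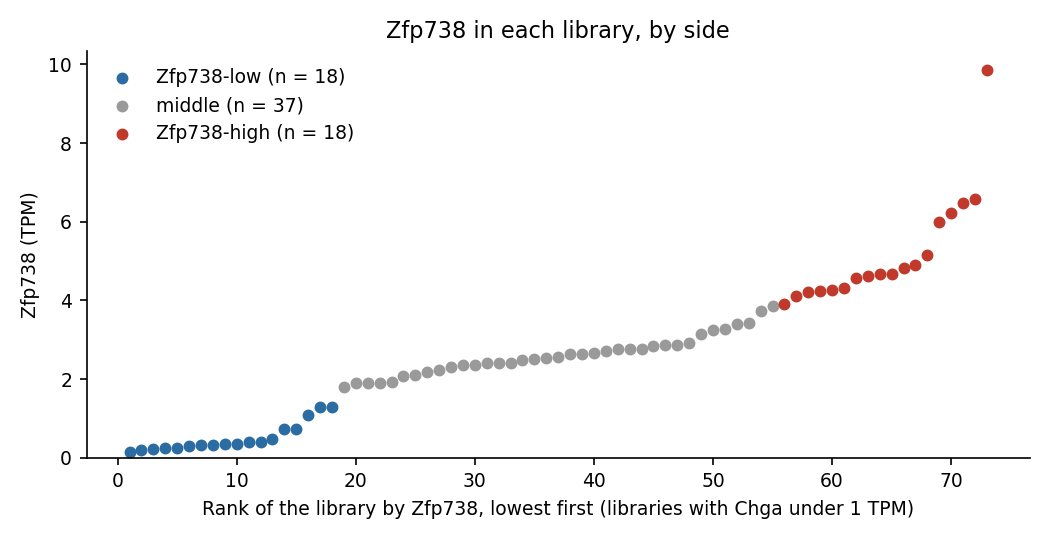
Zfp738 in TPM (vertical axis) in each of the 73 libraries with Chga under 1 TPM, ranked from lowest to highest (horizontal axis); blue points are the 18 Zfp738-low, grey points the 37 middle and red points the 18 Zfp738-high libraries. A step is visible between 1.30 and 1.81 TPM, none between 3.85 and 3.90 TPM, and 1 library stands alone at 9.86 TPM.

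Gm26587, a processed pseudogene on the opposite strand, lies with all 989 of its exon bases inside Zfp738 exons, and no source describes the kit as strand-specific. Its values are therefore a second reading of Zfp738 and were not tested. It was listed at 0 in 15 of 18 low libraries and ranged from 0.49 to 1.96 TPM in the high side (median 1.015).

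The 20 most abundant genes held a median of 67.02% of the summed TPM in the low side and 67.9% in the high side. Genes at 1 TPM or more numbered 12378 on average in the low side (SD 1040) and 13093 in the high side (SD 1024). Chga had medians of 0.22 and 0.30 TPM, but the choice of libraries held it under 1 TPM in both sides. In 3 libraries markers of the tissue stood apart from the rest: W1118, of the high side, had 738 TPM summed over proliferation genes, 203 TPM over neuroendocrine genes and 1865 TPM over fibroblast genes, W4548, of the high side and at 9.86 TPM the highest in Zfp738, had 158 TPM over leukocyte genes and 5669 TPM over fibroblast genes, and W1154, of the low side, had 314 TPM over prostate luminal genes. The libraries W7822 and W78022, both in the low side, have nearly the same label and correlated at r = 0.967 over the genes tested. Because TPM does not retain read numbers, the counting error of a level cannot be given and its depth is unknown. The bulk samples cannot tell fewer cells of a type from less RNA per cell.

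Of 21099 genes that averaged 0.1 TPM or more, 25 (0.118%) were called at an adjusted p under 0.05 by limma on log2(TPM + 1) with Benjamini-Hochberg adjustment, 22 (0.104%) higher and 3 (0.0142%) lower in the Zfp738-high side. Chromosome 13 held 16 of the 25 calls and 739 of the genes tested (2.17% called), and all other placed chromosomes together held 9 of 20209 (0.0445%). All genes together leaned the same way: the median difference was 0.12, and 17823 genes were higher in the high side. Scaling by the median of ratios brought that median to 0.01, so differences of single genes are also given above it. The share of calls on chromosome 13, 64% here, depended on the setting: it was 48.8% (21 of 43) under median-of-ratios scaling, 36.2% (34 of 94) after rescaling without the 20 largest genes, 3.95% (186 of 4713) with 24 libraries a side and 3.79% (145 of 3821) for a slope over all 73 libraries. Without the 3 libraries that stood apart, 21 genes were called, 15 of them on chromosome 13, and without W78022 18 and 13.

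The number of calls depended on where the sides were cut. With 24 libraries a side in place of 18, 4713 genes were called, of which 186 (3.95%) were on chromosome 13, a share near the 3.50% of all genes tested that lie there. Leaving out W4431 gave 82 calls (27 on chromosome 13), leaving out W4126 gave 66 (24) and leaving out W4350 gave 16 (13); all 3 are low libraries. Of the 25 genes, 16 were called in each of the 36 fits that left out 1 library, and 13 of these 16 were on chromosome 13.

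The calls were densest beside Zfp738. Of the genes whose start lay within 1 Mb of its start, 5 of 39 were called (12.8%), and 4 of 36 from 1 to 5 Mb (11.1%). The share fell to 1 of 73 from 5 to 10 Mb, 2 of 121 from 10 to 20 Mb, 2 of 239 from 20 to 40 Mb and 2 of 231 beyond 40 Mb. All 10 called genes within 10 Mb were higher in the Zfp738-high side, and the 2 called genes of the chromosome that were lower, AK157302 and Sirt5, lay farther away. The share of genes with an unadjusted p under 0.05 was 46.2% within 1 Mb and 36.1% from 1 to 5 Mb, against 17.9% of all genes. From 5 Mb on it was 16.4% to 21.5%.

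**Figure D2:**
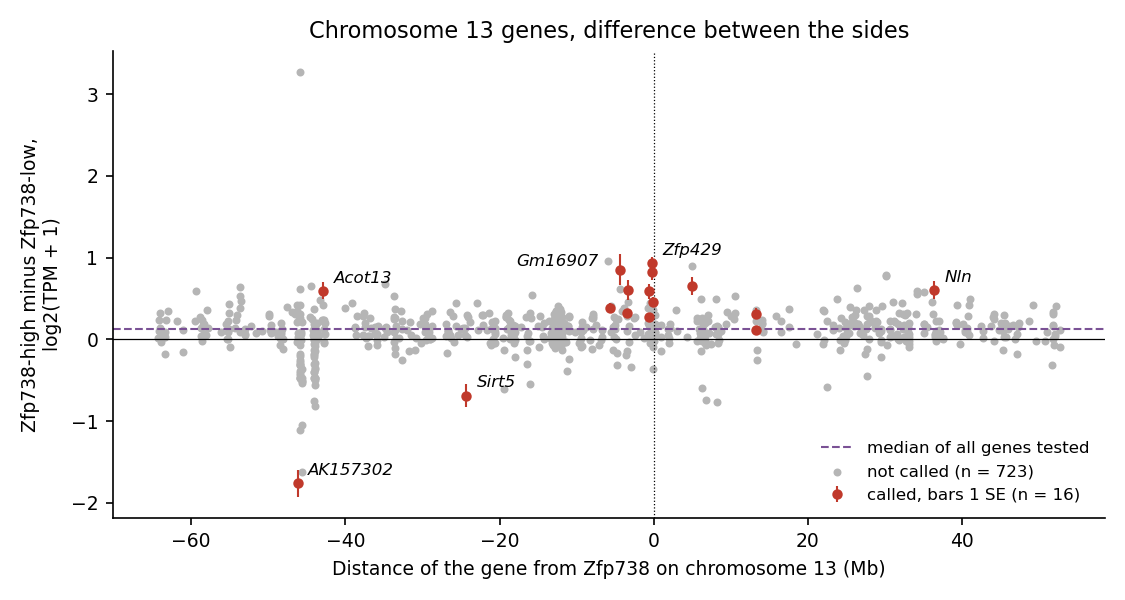
Difference between the sides in log2(TPM + 1), high minus low (vertical axis), for the 739 chromosome 13 genes tested, against the distance of each gene from Zfp738 in Mb (horizontal axis); red points with bars of 1 SE are the 16 called genes, grey points the other 723, and the dashed line is the median of all genes tested, 0.12. Called genes crowd at the dotted line of Zfp738 and are all above 0 within 10 Mb, while AK157302 and Sirt5 are the 2 called genes below 0.

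Zfp429, a zinc finger gene 0.27 Mb from Zfp738 (67387905 to 67399819, minus strand), separated the sides without overlap. It ranged from 0.03 to 0.60 TPM in the low side (median 0.135), from 0.28 to 1.34 in the middle libraries (median 0.64) and from 0.78 to 2.44 in the high side (median 1.195). Of all genes tested, no other separated the 36 libraries completely (1 gene, 0.00474%). The difference was 0.93 ± 0.07 on the log2(TPM + 1) scale (SE, n = 18 per side; limma adjusted p = 9.76e-11), 0.81 above the median of all genes. On the linear scale the mean was 6.76 times as high in the high side.

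Zfp874a, 0.23 Mb away (67424549 to 67451624, minus strand), differed nearly as much but with overlap. Its range was 0.79 to 2.50 TPM in the low side (median 1.70), 0.65 to 4.39 in the middle (median 3.04) and 1.49 to 6.29 in the high side (median 3.79). Of the high libraries 1 lay inside the low range, while 14 low libraries lay inside the high range. The difference was 0.83 ± 0.11 (limma adjusted p = 1.54e-05), 0.70 above the median of all genes.

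Zfp708 and Gm28557 share most of their sequence and cannot be read apart with confidence. Gm28557 (67069399 to 67108604, minus strand), whose identifier the study lists under the name Zfp708, is a gene model that spans its neighbours and shares 50.02% of its exon bases with Zfp708 and 28.2% with Rslcan18. Gm28557 ranged from 0.26 to 1.69 TPM in the low side (median 1.265), from 0.58 to 3.01 in the middle (median 1.89) and from 1.46 to 3.42 in the high side (median 2.545), with 1 high library inside the low range. Its difference was 0.59 ± 0.09 (limma adjusted p = 0.000486). Zfp708 itself was low throughout, with medians of 0.22 TPM and 0.46 TPM in the 2 sides, and differed by 0.27 ± 0.05 (limma adjusted p = 0.0209), a call lost under median-of-ratios scaling (adjusted p = 0.113).

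9430065F17Rik, an antisense transcript (67553035 to 67564010, plus strand) that shares 22.4% of its exon bases with Zfp748 on the other strand, was the fifth call within 1 Mb. It ranged from 0.02 to 0.19 TPM in the low side (median 0.07), from 0.11 to 0.81 in the middle (median 0.31) and from 0.18 to 0.94 in the high side (median 0.495). A single library of each side reached into the range of the other. The difference was 0.46 ± 0.06 (limma adjusted p = 1.54e-05), a value that understates the change because levels under 1 TPM are compressed by the added 1. Zfp748 was higher in TPM, with medians of 2.95 and 3.67, and its difference of 0.35 ± 0.12 did not pass (limma adjusted p = 0.164).

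**Figure D3:**
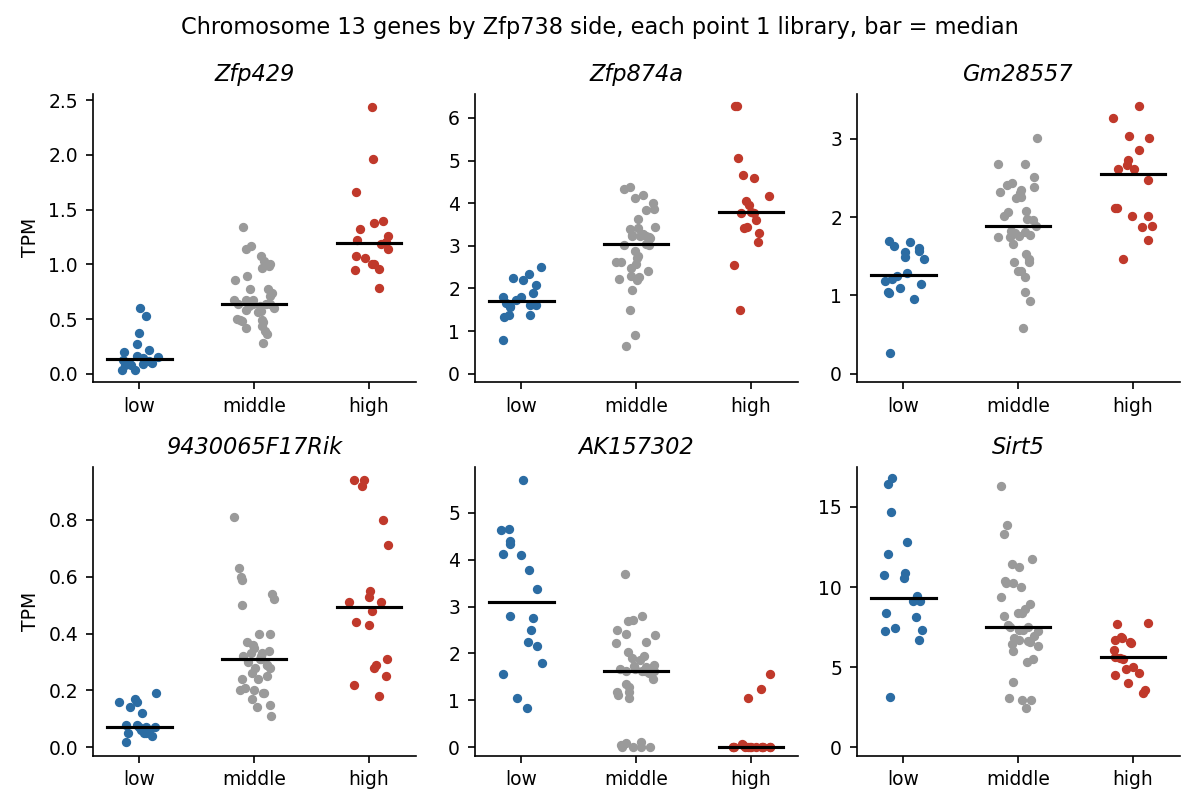
TPM (vertical axes, each from 0) of 6 chromosome 13 genes in the Zfp738-low (blue, n = 18), middle (grey, n = 37) and Zfp738-high (red, n = 18) libraries; each point is 1 library and the bar is the median. Zfp429 does not overlap between low and high, Zfp874a, Gm28557 and 9430065F17Rik rise through the middle libraries, and AK157302 and Sirt5 are lower in the high side.

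Of 26 zinc finger genes of the table within 1 Mb, Zfp738 included, 24 were tested, and Zfp429, Zfp874a and Zfp708 were called. Taken by symbol, the list holds the noncoding Zfp85os and the pseudogene Zfp640, which was too low to test. It leaves out Gm28557 and Rslcan18. Of the 24, 20 were higher in the high side (17 under median-of-ratios scaling), with a median difference of 0.17, beside 0.12 over all genes. Their differences ran from -0.37 to 0.93. Rsl1, 0.49 Mb from Zfp738, had medians of 0.805 TPM and 1.415 TPM in the 2 sides and differed by 0.45 ± 0.11 (limma adjusted p = 0.0928; 0.0255 under median-of-ratios scaling). Zfp58 (0.41 ± 0.10) and Zfp595 (0.38 ± 0.10) did not pass either, with adjusted p of 0.0824 and 0.109 by limma. Zfp429 shares 30.02% of its 31-base words with Rsl1 and 22.9% with Zfp456, so the assignment of reads between these genes is uncertain.

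Zfp459, which lies between Zfp429 and Zfp874a, differed by 0.15 ± 0.07. Zfp456, a neighbour of Zfp429, had medians of 0.81 and 0.87 TPM and a difference of 0.07 ± 0.10. Zfp874b, the closest relative of Zfp874a in the cluster, which holds 10% of its words, had medians of 2.005 and 2.13 TPM and a difference of 0.17 ± 0.10. Zfp729a, a neighbour of Zfp738, differed by 0.13 ± 0.11, Zfp65 by 0.19 ± 0.12 and Zfp85, a neighbour on its other side, by -0.02 ± 0.10.

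**Figure D4:**
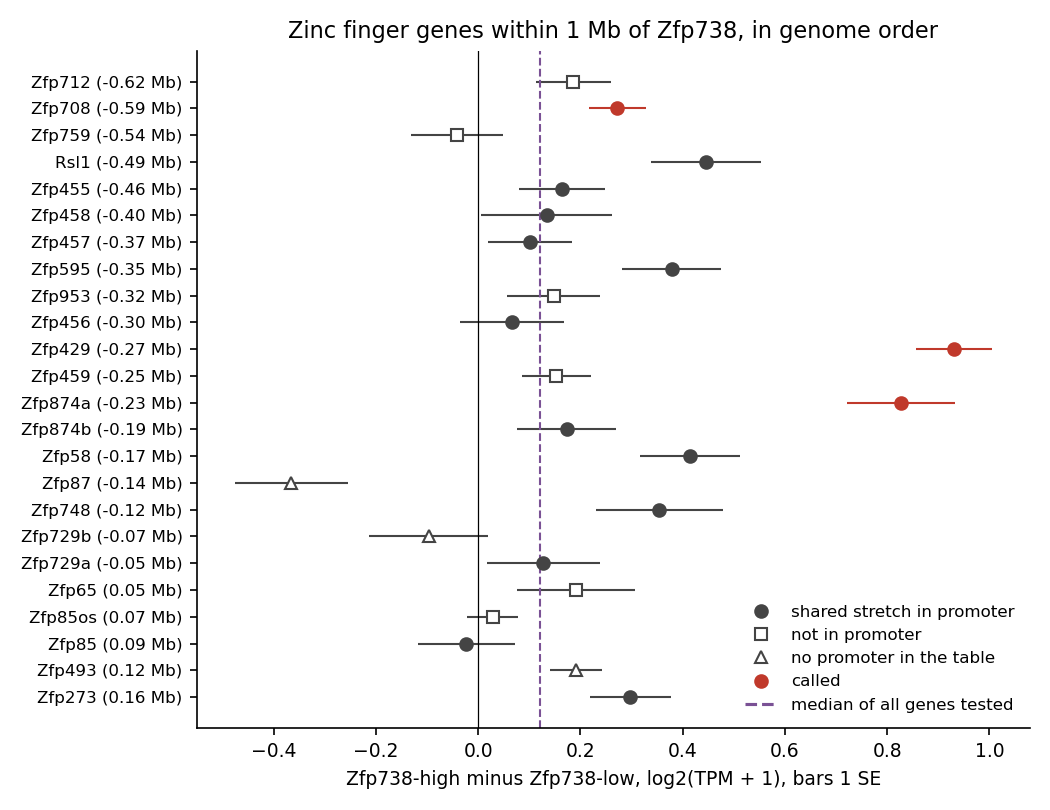
Difference between the sides in log2(TPM + 1) with bars of 1 SE (horizontal axis) for the 24 tested zinc finger genes within 1 Mb of Zfp738, listed in genome order with their distance in Mb (vertical axis); circles have the shared stretch in a promoter, squares do not, triangles have no promoter in the table, red marks called genes and the dashed line is the median of all genes tested. Zfp429 (0.93) and Zfp874a (0.83) stand apart from the others, and Zfp87 (-0.37) is the lowest.

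Zfp87 and Glrx, candidates of the study on this chromosome, had lower medians in the high side, and neither passed the test. Zfp87 lies 0.14 Mb from Zfp738 (67515781 to 67526177, minus strand). It ranged from 7.19 to 17.1 TPM in the low side (median 12.6), from 3.74 to 21.3 in the middle (median 10.7) and from 4.04 to 12.5 in the high side (median 9.495). All but 1 of the high libraries fell inside the low range. The difference of -0.37 ± 0.11 did not pass (limma adjusted p = 0.149, and 0.0011 to 0.311 over its alternatives). Glrx, the gene for glutaredoxin, lies 8.18 Mb away and had medians of 7.30 TPM and 3.685 TPM in the low and high sides. It differed by -0.76 ± 0.18 (limma adjusted p = 0.0815) and was called under median-of-ratios scaling (-0.96, adjusted p = 0.00362).

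From 1 to 10 Mb the called genes were mostly noncoding. Gm6478, a processed pseudogene 5.62 Mb from Zfp738 (62035422 to 62036163), was listed at 0 in 9 of 18 low libraries and 1 of 18 high ones, with a highest value of 0.17 TPM in the low side and 0.80 in the high side (difference 0.38 ± 0.06, limma adjusted p = 0.00159). Words found in another gene made up 66.9% of Gm6478. The antisense transcript 1810034E14Rik, 3.41 Mb away (64248700 to 64271852), had medians of 0.085 and 0.32 TPM (0.32 ± 0.05, limma adjusted p = 0.00247). Next to it Aaed1, which encodes a protein of the peroxiredoxin-like family, ranged from 4.58 to 10.4 TPM in the low side and from 4.45 to 16.8 in the high side, with medians of 7.35 and 12.02. It differed by 0.60 ± 0.12 (limma adjusted p = 0.0209) and was not called under median-of-ratios scaling (adjusted p = 0.202).

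The lincRNA Gm16907 (63289601 to 63297147) had the largest adjusted p of the calls within 10 Mb. It ranged from 0.55 to 4.44 TPM in the low side (median 1.705) and from 2.08 to 12.7 in the high side (median 3.56), and differed by 0.85 ± 0.19 (limma adjusted p = 0.0496). It was called in 9 of the 36 fits that left out a library, and not without the 3 libraries apart in markers (limma adjusted p = 0.161) or with re-ranked sides (0.181). Fancc, a gene of the Fanconi anemia DNA repair pathway that overlaps it in position, differed by 0.62 ± 0.15 without passing (limma adjusted p = 0.0815). On the other side of Zfp738, at 4.97 Mb, the lincRNA Gm20554 (72626213 to 72628564) had medians of 1.215 and 2.235 TPM and a difference of 0.65 ± 0.12 (limma adjusted p = 0.00327). Irx2, a homeobox transcription factor gene that starts beside Gm20554, had medians of 3.65 and 6.97 TPM and a difference of 0.90 ± 0.20 that did not pass (limma adjusted p = 0.0628).

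The largest difference of the chromosome among called genes was not beside Zfp738. AK157302, a gene 46.2 Mb away (21495223 to 21497146, plus strand), was lower in the Zfp738-high side by 1.76 ± 0.16 (limma adjusted p = 4.48e-09). It ranged from 0.83 to 5.69 TPM in the low side (median 3.09), from 0 to 3.70 in the middle (median 1.63) and from 0 to 1.57 in the high side, where 11 of 18 libraries were listed at 0. All 18 low libraries, 30 of 37 middle libraries and 3 of 18 high libraries were at 0.5 TPM or more. The 3 were the only high libraries inside the low range.

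AK157302 shares 75.7% of its 31-base words with Isca1, a gene for mitochondrial iron-sulfur cluster assembly, which lies on the same chromosome at 59755409, 7.90 Mb from Zfp738 on the side toward AK157302. Isca1, looked up after the values of AK157302 were seen, ranged from 6.87 to 21.7 TPM in the low side (median 14.2) and from 11.9 to 26.4 in the high side (median 16.2), and its difference of 0.26 ± 0.11 did not pass (limma adjusted p = 0.234). Reads of the 2 genes can be exchanged by the counting, so the position at which AK157302 was measured is uncertain, and how much of its level comes from Isca1 was not tested.

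Sirt5, Acot13 and Nln, which encode proteins of known role, also lay far from Zfp738. Sirt5, the gene of a mitochondrial lysine desuccinylase 24.3 Mb away (43365496 to 43395203), was lower in the high side. It ranged from 3.16 to 16.8 TPM in the low side (median 9.305), from 2.46 to 16.3 in the middle (median 7.48) and from 3.41 to 7.73 in the high side (median 5.605), so that all high libraries lay within the low range but most low libraries above the high one. The difference was -0.69 ± 0.14 (limma adjusted p = 0.0209) and reached -0.89 under median-of-ratios scaling. Sirt5 was called under all 11 of its alternatives.

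Acot13, an acyl-CoA thioesterase gene 42.8 Mb away (24817948 to 24831540), had medians of 13.8 TPM and 20.6 TPM in the 2 sides and a difference of 0.59 ± 0.10 (limma adjusted p = 0.00316). Nln, the gene for the peptidase neurolysin 36.4 Mb away on the other side (104023057 to 104109614), had medians of 3.50 and 5.59 TPM and a difference of 0.60 ± 0.11 (limma adjusted p = 0.00944). Neither call held under median-of-ratios scaling, with adjusted p of 0.197 and 0.0542. The overlapping transcripts Gm4211 and 9330111N05Rik, both 13.3 Mb away, completed the 16 with differences of 0.31 ± 0.07 and 0.11 ± 0.02, the latter no larger than the median of all genes. They were called in 21 and 9 of the 36 fits that left out a library. Gm4211 was not called under median-of-ratios scaling (limma adjusted p = 0.102), nor 9330111N05Rik without the 3 libraries (0.0667).

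The middle libraries lay between the sides for each of the 25 called genes when medians are compared, as described above for Zfp429, Zfp874a, Gm28557 and Sirt5. These 37 libraries belonged to neither side of the main test, though they were ranked with the others and counted in the filter on gene means. Some entered the fit with 24 libraries a side, and all entered the slope. As Zfp738 ranks them too, their place between the sides is a description only.

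The libraries with Chga of at least 1 TPM were not used for the sides and served as a second set. Their lowest and highest 25% by Zfp738 formed low and high groups of 10 libraries each, at 0.18 to 2.51 TPM (median 0.935) and 5.18 to 6.72 TPM (median 5.87). This low group reached into the range of the middle libraries of the first set (1.81 to 3.85 TPM), so the 2 contrasts are not alike in Zfp738. In this set limma called 0 of 24357 genes, and 430 (1.77%) had an unadjusted p under 0.05. The smallest adjusted p was 0.156, that of AK157302, and a slope on Zfp738 over all 42 libraries called 1 gene, again AK157302. With 10 libraries a side the same fit on simulated data recovered 28 of 50 genes changed by 1 on the log2 scale and 3 of 50 changed by 0.5. The changed genes were drawn from those with a mean log2(TPM + 1) above 1. Recovery of lower genes, such as Zfp429, was not simulated.

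The directions of the chromosome 13 genes recurred in the second set. All 16 called genes of chromosome 13 had the same sign there, against 4 of the 9 called genes elsewhere. An unadjusted p under 0.05 by limma was reached by 6 of the 16 and 2 of the 9. Gm28557 and Zfp708 share exon bases, as do Gm4211 and 9330111N05Rik, so the 16 are not all separate readings. AK157302 ranged from 1.83 to 5.08 TPM in its low group (median 3.305) and from 0 to 1.96 in its high group (median 0.485), a difference of -1.48 ± 0.25. Zfp429 ranged from 0.04 to 0.30 TPM in the low group and from 0.04 to 1.35 in the high group, a difference of 0.34 ± 0.16. Sizes of difference are between sides cut at unlike Zfp738 levels in the 2 sets. Of the 16, 12 differed by less than in the first set, among them Zfp874a (0.42 ± 0.23), Gm28557 (0.24 ± 0.23), Gm20554 (0.15 ± 0.28) and Zfp708 (0.09 ± 0.13). Gm6478 (0.62 ± 0.14), Gm16907 (1.07 ± 0.43), 1810034E14Rik and 9330111N05Rik differed by more.

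**Figure D5:**
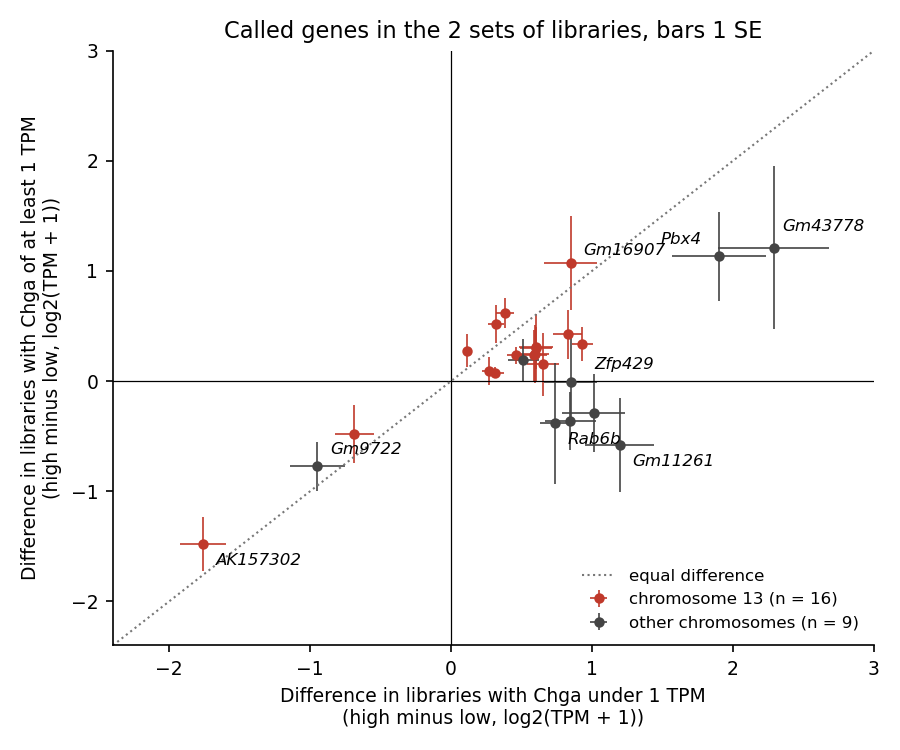
Difference between high and low libraries by Zfp738 in log2(TPM + 1) for the 25 called genes, in the libraries with Chga under 1 TPM (horizontal axis, 18 per side) and with Chga of at least 1 TPM (vertical axis, 10 per side), with bars of 1 SE; red points are on chromosome 13 and dark points elsewhere, and the dotted line marks equal differences. All 16 red points lie in the quadrants of equal sign, with AK157302 near the dotted line, and 5 of the 9 dark points lie below 0 on the vertical axis while above 0 on the horizontal.

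Whether the difference itself changed with Chga was tested as an interaction. None of 20547 genes passed (limma, smallest adjusted p = 0.874), and 976 had an unadjusted p under 0.05, 8 of them among the 25 called genes. The difference of Zfp429 was smaller in the second set at an unadjusted p of 0.000267 (adjusted p = 0.874).

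Outside chromosome 13, 8 genes were higher and 1 was lower in the Zfp738-high side. Rab6b (chromosome 9), a small GTPase gene of Golgi traffic, ranged from 0.02 to 0.61 TPM in the low side and from 0.01 to 2.32 in the high side, with medians of 0.095 and 0.93, and differed by 0.74 ± 0.11 (limma adjusted p = 0.000347). In the second set its difference was -0.38 ± 0.55. Pbx4 (chromosome 8), a homeobox gene, ranged from 0.17 to 5.02 TPM in the low side and from 0.06 to 21.85 in the high side, with medians of 0.68 and 7.925. All 18 low libraries lay inside the high range and 3 high libraries inside the low range. Pbx4 differed by 1.90 ± 0.33 (limma adjusted p = 0.00316). It kept its direction in the second set, at 1.13 ± 0.40 with an unadjusted p of 0.011.

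The lower gene was Gm9722, a processed pseudogene on chromosome 1, with medians of 2.42 and 0.29 TPM (-0.95 ± 0.19, limma adjusted p = 0.0228). Gm9722 shares 45.3% of its words with a gene that has no position here. The next share is 43.8%, with Nsa2, a ribosome biogenesis gene of chromosome 13 that starts at 97129424 and itself differed by 0.10 ± 0.14. The difference of Gm9722 in the second set was -0.77 ± 0.23. The other 6 were Gm43778 on chromosome 5, Gm11261, Cfap74 and Gm11851 on chromosome 4, Gm15758 on chromosome 8 and Rplp1-ps1 on chromosome X, with differences from 0.51 to 2.29, and 5 of them are noncoding or pseudogenes. Words found in another gene made up 78.7% of Gm15758, 72.1% of Gm11851, 64.1% of Gm11261 and 51.5% of Gm43778. They made up 14.9% of Rplp1-ps1 and 7.28% of Cfap74. Of the 9, Rab6b, Gm43778 and Pbx4 were called in all 36 fits that left out a library.

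No call fell among genes that work with KRAB zinc finger proteins, a short list when 0.118% of all genes were called. None of the 17 corepressor genes, Trim28 and Setdb1 among them, was called by limma. An unadjusted p under 0.05 by limma was found for 4 of them (23.5%), against 17.9% of all genes. Under median-of-ratios scaling these shares were 11.8% and 15.8%. In the high side 16 were higher, but 9 under median-of-ratios scaling, with a median difference of 0.23 that fell to 0.02 there. Trim28 had medians of 52.7 TPM and 56.3 TPM in the 2 sides and differed by 0.23 ± 0.19. Of the 360 zinc finger genes tested on other chromosomes none was called. By limma 98 of them (27.2%) had an unadjusted p under 0.05, against 17.9% of all genes. Under median-of-ratios scaling these shares were 10% and 15.8%. Their median difference was 0.16, beside 0.19 for the 42 of chromosome 13, where 3 were called. Under median-of-ratios scaling these medians were 0.03 and 0.05.

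Rsl1 is known to act on sex-limited genes of the liver, and 5 of these were in the table. None was called, where 0.118% of all genes were, and 0 had an unadjusted p under 0.05 by limma. Cyp2d9, Mup3 and Mup20 had medians of 0 in both sides. C4a had medians of 0.96 and 1.33 TPM, a difference of 0.44 ± 0.24.

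Marker lists showed no called gene for neuroendocrine, proliferating, prostate luminal, smooth muscle, leukocyte, fibroblast, endothelial or basal cells or for seminal vesicle, and none of their genes had an unadjusted p under 0.05 by limma. Over all genes 0.118% were called and 17.9% had an unadjusted p under 0.05. The seminal vesicle list stood out in size only: all 7 genes were lower in the high side, with a median difference of -0.97, and their summed level ranged from 1.92 to 97253 TPM in the low side (median 1727) and from 3.86 to 74701 in the high side (median 1803). Prostate luminal markers summed to a median of 7343 TPM in the low side and 8633 in the high side. The neuroendocrine markers Insm1 and Syp were under the mean of 0.1 TPM needed for testing. Fitting with 5 tissue indices as covariates gave 43 calls, 30 of them on chromosome 13.

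The genes whose levels ran most like Zfp738 over the 73 libraries were, besides Gm26587 (Spearman's rho of 0.90), Zfp429 (0.87), Zfp874a (0.75), 9430065F17Rik (0.73) and Gm28557 (0.72), all within 1 Mb. These values share the libraries that chose the sides and describe likeness only. Over the 42 other libraries the same rho was 0.21 for Zfp429, 0.18 for Zfp874a, 0.47 for 9430065F17Rik and 0.15 for Gm28557. The lowest rho was that of AK157302, at -0.67 over the 73 and -0.69 over the 42 libraries, followed by Gm5096, Sirt5, Glrx and Gm9722 at -0.49 to -0.42. Gm5096 shares 84.97% of its words with Bhmt, a methyltransferase gene of chromosome 13 that starts at 93616675, and its difference of 0.07 ± 0.17 did not pass (limma adjusted p = 0.868).

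Nup35, a nucleoporin gene on chromosome 2 that is listed under 1 TPM in part of the libraries, was under that level in 4 of 18 low, 12 of 37 middle and 8 of 18 high libraries. Its difference of -0.44 ± 0.25 did not pass (limma adjusted p = 0.349).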

How the data were processed

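Prostate RNA was sequenced after ribosomal RNA depletion. The authors trimmed reads, mapped them with Bowtie2 2.2.5 to a transcriptome carrying both parental alleles and quantified genes with RSEM 1.2.20, per the methods and the submitters' processing notes. The deposited values are TPM for 45699 genes, of which 45136 were found in GENCODE M21 (GRCm38), the source of names and positions. RSEM divides reads among similar genes, and TPM is relative, so abundant genes shift all others.

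Libraries with Chga under 1 TPM were ranked by Zfp738 and 25% formed each side. The members, lists and tests were chosen with earlier results of these data known. Each library has its own label, but the labels do not state which mouse it came from, so separate mice were assumed. The paper reports fewer sequenced prostates than the 115 libraries of the series. Genes averaging 0.1 TPM or more were compared on log2(TPM + 1) with limma 3.58.1 (trend, robust; R 4.3.3), two-sided, with Benjamini-Hochberg adjustment over all genes tested; ± is the SE. Zfp738, Chga and Gm26587 were not tested. Named were the study's chromosome 13 candidates, the 20 genes of chromosome 13 and 10 others with the smallest adjusted p, called members of the lists, the 5 highest and 5 lowest in correlation with Zfp738, Chga and Nup35. Isca1, Nsa2, Bhmt and the list members without a call were named after their values were seen. Shared sequence was measured as 31-base words of GENCODE transcripts. On data simulated with the spread of the 73 libraries (21099 genes), 45 of 50 genes changed by 1 and 21 of 50 changed by 0.5 on the log2 scale were recovered, with 5 other calls. Changed genes had a mean log2(TPM + 1) above 1, so the recovery does not cover lower genes. Genes were drawn independently, without the lean of all genes toward the high side. Alternatives were pseudocount, filter, scaling, sides, covariates and left-out libraries.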

Additional observations from a re-analysis of the deposited data

Results flagged for a closer look

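In the sides of 10 libraries with Chga of at least 1 TPM, the highest or lowest library stood far from the others, by Dixon's 95% value for 10 samples, in 9 of 66 groups examined, where chance flags about 1 in 20. One library of the high group, W4360, was the outlying one for 4 genes: Zfp874a at 7.02 TPM (next 3.78), Aaed1 at 21.03 TPM (next 9.36), Glrx at 8.87 TPM (next 5.25) and Fancc at 4.31 TPM, the lowest (next 7.87). Gm20554 stood apart in W4292 of the low group at 3.94 TPM (next 1.33) and in W4419 of the high group at 6.13 TPM (next 1.77). Glrx stood apart in W4492 of the low group at 19.6 TPM (next 10.98), Nln in W1915 of the low group at 7.26 TPM (next 4.97) and Gm15758 in W353 of the high group at 17.8 TPM (next 12.3).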

How the results depend on the processing

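Against 25 calls in all, 16 on chromosome 13 and 10 within 10 Mb, a filter at a mean of 1 TPM gave 16, 9 and 5, TPM rescaled without the 20 largest genes gave 94, 34 and 20, tissue indices as covariates gave 43, 30 and 18, 24 libraries a side gave 4713, 186 and 52, and the slope over all 73 libraries gave 3821, 145 and 41. Median-of-ratios scaling gave 43, 21 and 15, and sides ranked after rescaling gave 6 within 10 Mb. The causes were not tested. Leaving out 1 library at a time, alternatives chosen after the data were seen, as were those without 3 libraries and without W78022, gave 16 to 82, 13 to 27 and 9 to 16 calls. The 3 low libraries W4431 (82), W4126 (66) and W4350 (16) moved the total by over 1.5 times. All 16 called genes of chromosome 13 kept their sign under both rescalings, re-ranked sides and a pseudocount of 0.1, and 11, 16, 10 and 16 of them were called there. The share of calls higher in the high side was 88%, and 72.1% under median-of-ratios scaling, 66.7% with sides ranked after rescaling and 71.4% without the 3 libraries. Gm5096 alone reversed, to -0.35 with a pseudocount of 0.1, -0.0389 after rescaling, -0.11 with re-ranked sides, -0.00507 as a slope and -0.11 without the 3 libraries. In the libraries with Chga of at least 1 TPM, 0 genes were called in each of 4 fits and 1 by the slope. No paired analysis was possible because all libraries carry the same group label and share no replicate numbers across sides. Unknown depth, a proxy in place of genotypes and similar sequences in the cluster limit all values.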

Other observations

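Chromosome X held many small differences: 432 of its 769 tested genes (56.2%) had an unadjusted p under 0.05 by limma between the sides, against 17.9% of all genes. That was the highest share among the autosomes and X, while 1 of the 769 was called. It was 60% for the 15 tested genes of the mitochondrial chromosome, 13 of them higher in the high side, with a median difference of 0.55. For the 17 genes of chromosome Y it was 41.2%, with a median difference of 0.28. Of the 769, 745 were higher in the Zfp738-high side, with a median difference of 0.19, and 694 were higher under median-of-ratios scaling, with a median of 0.13 beside 0.01 over all genes. Without the libraries W1118, W1154 and W4548, 711 were higher and 31.2% had an unadjusted p under 0.05.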
